A study of Homo sapiens with 9 samples.

Results

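The mitochondrial ribosomal protein genes described here are the 76 genes whose symbol is MRPL or MRPS followed by a number and at most 1 letter. They were taken, by symbol alone, from the protein-coding genes on primary chromosomes among the 63677 genes measured. Of 86 protein-coding rows with such a name, 8 lay off the primary chromosomes and held no read. MRPL30 and MRPS17 had a second row each, which overlaps the first on the same strand, and the row with the higher mean was kept. By name, 47 genes belong to the large subunit (MRPL) and 29 to the small subunit (MRPS), and they are spread over 21 chromosomes. The study sequenced polyadenylated RNA of HCT116 cells, an established line from a human colon adenocarcinoma, labelled wild type, 48 h after siRNA transfection. The 3 groups, of 3 libraries each, received siRNA against RNF40 (siRNF40), siRNA against TG2, the protein encoded by TGM2 (siTG2), or control siRNA (siControl). Transfection was the same for all groups, so the siControl cells carry an siRNA too. The title places the study in work on serotonylation of histone H3 by TG2 in colorectal cancer.

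The mitochondrial ribosome translates the few messenger RNAs encoded by mitochondrial DNA, all of which specify membrane subunits of the respiratory chain and of ATP synthase. Its RNAs come from the mitochondrial genome, but every one of its proteins is encoded in the nucleus, made in the cytosol and imported, so scattered nuclear genes must supply a single particle. Members with low numbers descend from bacterial ribosomal proteins of the same number, while those with higher numbers were added during the evolution of mitochondria. RNF40 is part of the ubiquitin ligase that attaches ubiquitin to histone H2B in transcribed genes, and TG2 is a transglutaminase that can attach serotonin to histone H3.

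Each library held between 29161285 and 35743918 reads in genes. RNF40 stood at 520.1 ± 20.6 normalized counts in siRNF40, 2304 ± 180.5 in siTG2 and 2784 ± 219 in siControl (SD, n = 3 each), and TGM2 at 877 ± 74.2 in siRNF40, 112 ± 48.6 in siTG2 and 605 ± 84.4 in siControl (SD, n = 3 each). Each target was below every control library in its own knockdown (exact permutation test, two-sided, p = 0.1, the smallest 3 against 3 can give), and limma gave log2 fold changes of -2.42 for RNF40 in siRNF40 (adjusted p = 5.31e-13) and -2.52 for TGM2 in siTG2 (adjusted p = 1.13e-07). RNF40 was also lower in siTG2 than in siControl, with a log2 fold change of -0.27 (adjusted p = 0.0192). The epithelial markers EPCAM, KRT8, KRT18 and CDH1 were abundant in all groups, whereas VIL1, LGALS4 and CDX1 averaged under 5 normalized counts in every group. CD3E, PECAM1, DCN and LUM were at 0 in every library, although COL1A1 was read in all groups (the 6 fibroblast markers summed to between 1340 and 1664 in siRNF40, 981 and 1154 in siTG2 and 793 and 967 in siControl). The summed level of the 8 epithelial markers lay between 93754 and 109394 in siRNF40, 55948 and 65917 in siTG2 and 60129 and 65364 in siControl, and its part in the results was not tested. The small cytoplasmic RNA RN7SL2 stood at 7842, 2760 and 2689 in siRNF40, 820, 2317 and 1505 in siTG2 and 1023, 812 and 910 in siControl, and its part was not tested either.

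Promoters of these genes are known for short binding words of general activators, among them NRF1, the ETS factor GABP, and YY1. RefSeq promoter sequences (GRCh38.p14, 250 bases before to 50 after the start) were found for 67 of the 76 genes. The words searched on both strands were GCGCATGC for NRF1, CCGGAAG for ETS factors and AAGATGGC for YY1, with overlapping matches allowed. YY1's word was in 20 of the 67 promoters (29.9%), against 3.91% of 15843 protein-coding promoters of the same length. The ETS word was in 28 (41.8%, against 14.2%) and the NRF1 word in 6 (8.96%, against 4.26%), and 41 promoters (61.2%, against 20.3%) held at least 1 of the words. A word is a string of letters and not a measured binding site.

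A window of 180 bases was taken from each of 6 genes, from 150 before to 30 after the start, and is printed 5′ to 3′ on the gene's strand with the matched words in capitals. The windows show the range among genes described below: MRPL36, MRPS12, MRPL52, MRPS10 and MRPL17 hold 1 or more words in several combinations, and MRPL34, the gene that differed most between the knockdowns, holds none of them. The windows lie at chr5:1799808-1799987 (minus strand), chr19:38930794-38930973 (plus strand), chr14:22829737-22829916 (plus strand), chr6:42217832-42218011 (minus strand), chr11:6683311-6683490 (minus strand) and chr19:17292423-17292602 (plus strand) in GRCh38.p14.
MRPL36: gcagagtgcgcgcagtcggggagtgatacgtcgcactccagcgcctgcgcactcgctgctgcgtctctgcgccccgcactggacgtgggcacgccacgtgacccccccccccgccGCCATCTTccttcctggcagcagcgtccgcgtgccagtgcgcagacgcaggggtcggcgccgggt
MRPS12: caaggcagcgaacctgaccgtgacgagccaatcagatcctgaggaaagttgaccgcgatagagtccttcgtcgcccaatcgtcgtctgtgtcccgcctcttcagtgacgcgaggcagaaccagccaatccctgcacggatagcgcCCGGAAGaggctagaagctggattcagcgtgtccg
MRPL52: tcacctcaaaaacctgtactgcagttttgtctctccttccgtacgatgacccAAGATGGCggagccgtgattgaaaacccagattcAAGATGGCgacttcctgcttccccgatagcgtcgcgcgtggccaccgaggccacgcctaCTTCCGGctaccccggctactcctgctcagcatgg
MRPS10: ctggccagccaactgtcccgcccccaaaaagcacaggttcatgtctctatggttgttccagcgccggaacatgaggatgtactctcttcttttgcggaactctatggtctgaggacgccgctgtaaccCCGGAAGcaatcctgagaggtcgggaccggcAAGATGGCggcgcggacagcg
MRPL17: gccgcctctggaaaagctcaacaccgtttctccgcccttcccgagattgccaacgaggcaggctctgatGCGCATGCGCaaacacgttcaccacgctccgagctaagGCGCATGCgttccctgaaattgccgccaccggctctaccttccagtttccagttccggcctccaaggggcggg
MRPL34: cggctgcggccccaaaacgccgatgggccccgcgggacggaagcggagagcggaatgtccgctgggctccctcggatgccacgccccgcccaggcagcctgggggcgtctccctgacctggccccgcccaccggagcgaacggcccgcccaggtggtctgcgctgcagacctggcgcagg
In the MRPL52 window the YY1 word occurs 2 times ahead of a single ETS word on the opposite strand. In MRPL36 the YY1 word is on the opposite strand. MRPS10 holds the ETS word ahead of the YY1 word, and MRPL17 holds 3 matches to the NRF1 word, 2 of them overlapping on opposite strands.

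Knockdown of RNF40 was accompanied by higher levels of many mitochondrial ribosomal protein transcripts in both subunits. Of the 75 genes tested, 37 were higher and 2 lower in siRNF40 than in siControl, where 21.7% of all 17663 genes tested were higher and 23.6% lower. Of the protein-coding genes tested, 24.2% were higher and 28.3% lower. The median log2 fold change of the 75 genes was 0.25, against 0.02 over all genes tested. The quartiles of the 75 fold changes were 0.06 and 0.42, and the 36 genes not called lay between -0.42 and 0.32. In 35 of the 37 genes called higher, all 3 siRNF40 libraries stood above all 3 siControl libraries, the exceptions being MRPS2 and MRPS24. Called or not, 42 of the 75 genes had all siRNF40 libraries above all siControl libraries and 3 had them below, against 26.4% and 26.8% of all genes tested. In bulk RNA, fewer cells with a transcript and less RNA per cell cannot be told apart. Split by symbol alone, the large subunit had 21 genes higher and 1 lower of 46 tested, and the small subunit 16 higher and 1 lower of 29.

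MRPL36, a small zinc-binding protein of the large subunit (ENSG00000171421, chr5:1798500-1801480, hg19), had the largest change among genes above 100 normalized counts in every library. Its normalized counts were 823, 669.6 and 652 in the siRNF40 libraries, 301, 434 and 327 in the siTG2 libraries and 370.0, 401 and 355 in the siControl libraries. The siRNF40 libraries were all above the siControl libraries, with a log2 fold change of 0.92 (SE 0.14, adjusted p = 2.56e-05), while the siTG2 libraries overlapped the siControl libraries. MRPL21, MRPL33 and MRPL34 are further large-subunit proteins inherited from bacteria. MRPL21 stood at 1268, 1154 and 1190.1 in the siRNF40 libraries, 542, 806 and 763 in the siTG2 libraries and 690.2, 797 and 689 in the siControl libraries, and its log2 fold change in siRNF40 was 0.73 (SE 0.12, adjusted p = 8.3e-05). MRPL33 stood at 2016, 1409 and 1184 in the siRNF40 libraries, 798, 1045 and 682 in the siTG2 libraries and 1020.4, 862 and 938 in the siControl libraries, with siRNF40 replicate 1 far above the other siRNF40 libraries. All siRNF40 libraries of both genes lay above all siControl libraries. MRPL4, whose bacterial counterpart lines the tunnel through which the new protein leaves, stood at 1083, 1264 and 1394 in the siRNF40 libraries, 468, 590.4 and 640.2 in the siTG2 libraries and 872, 699 and 668 in the siControl libraries. Its siRNF40 libraries were above all others, with a log2 fold change of 0.74 (SE 0.13, adjusted p = 0.000112).

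In the small subunit, MRPS21 and MRPS5 had the largest changes among genes above 100 normalized counts in every library. MRPS21 stood at 2509.8, 2378 and 1993 in the siRNF40 libraries, 1075, 1445 and 1215 in the siTG2 libraries and 1354, 1569 and 1337 in the siControl libraries, and its log2 fold change in siRNF40 was 0.69 (SE 0.11, adjusted p = 3.52e-05). MRPS5, whose bacterial counterpart lies at the entry of the messenger RNA, stood at 3634, 3675 and 3679 in the siRNF40 libraries, 2387, 2371 and 2353 in the siTG2 libraries and 2337, 2399 and 2304 in the siControl libraries. Its libraries hardly varied within groups, and its log2 fold change in siRNF40 was 0.64 (SE 0.06, adjusted p = 1.34e-07) while siTG2 and siControl overlapped. MRPS12, a protein of the decoding centre, had siRNF40 libraries above all others at 1046, 1101 and 1296 in the siRNF40 libraries, 605, 698 and 706 in the siTG2 libraries and 854, 874 and 786 in the siControl libraries, with a log2 fold change of 0.45 (SE 0.10, adjusted p = 0.00138).

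The 2 genes that fell in siRNF40 were MRPS10, a protein of the small subunit's head (ENSG00000048544, chr6:42174539-42185603, hg19), and MRPL35, of the large subunit. MRPS10 stood at 3037, 3318 and 2952 in the siRNF40 libraries, 3469.8, 3064 and 3611 in the siTG2 libraries and 4290.3, 4759 and 4807 in the siControl libraries. Both knockdowns had all libraries below all siControl libraries, and the log2 fold change was -0.57 (SE 0.08, adjusted p = 5.33e-06) in siRNF40 and -0.45 (SE 0.08, adjusted p = 0.000158) in siTG2. MRPL35 stood at 1242, 1127 and 1188 in the siRNF40 libraries, 1278, 1315 and 1268 in the siTG2 libraries and 1316, 1364 and 1511 in the siControl libraries, a narrow gap of -0.24 (SE 0.08, adjusted p = 0.0249) on the log2 scale. That call ended under quantile normalization and without siRNF40 replicate 2 or siControl replicate 3, with adjusted p from 0.012 to 0.141 over all alternatives. Without siRNF40 replicate 1, 3 genes were lower.

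**Figure D1:**
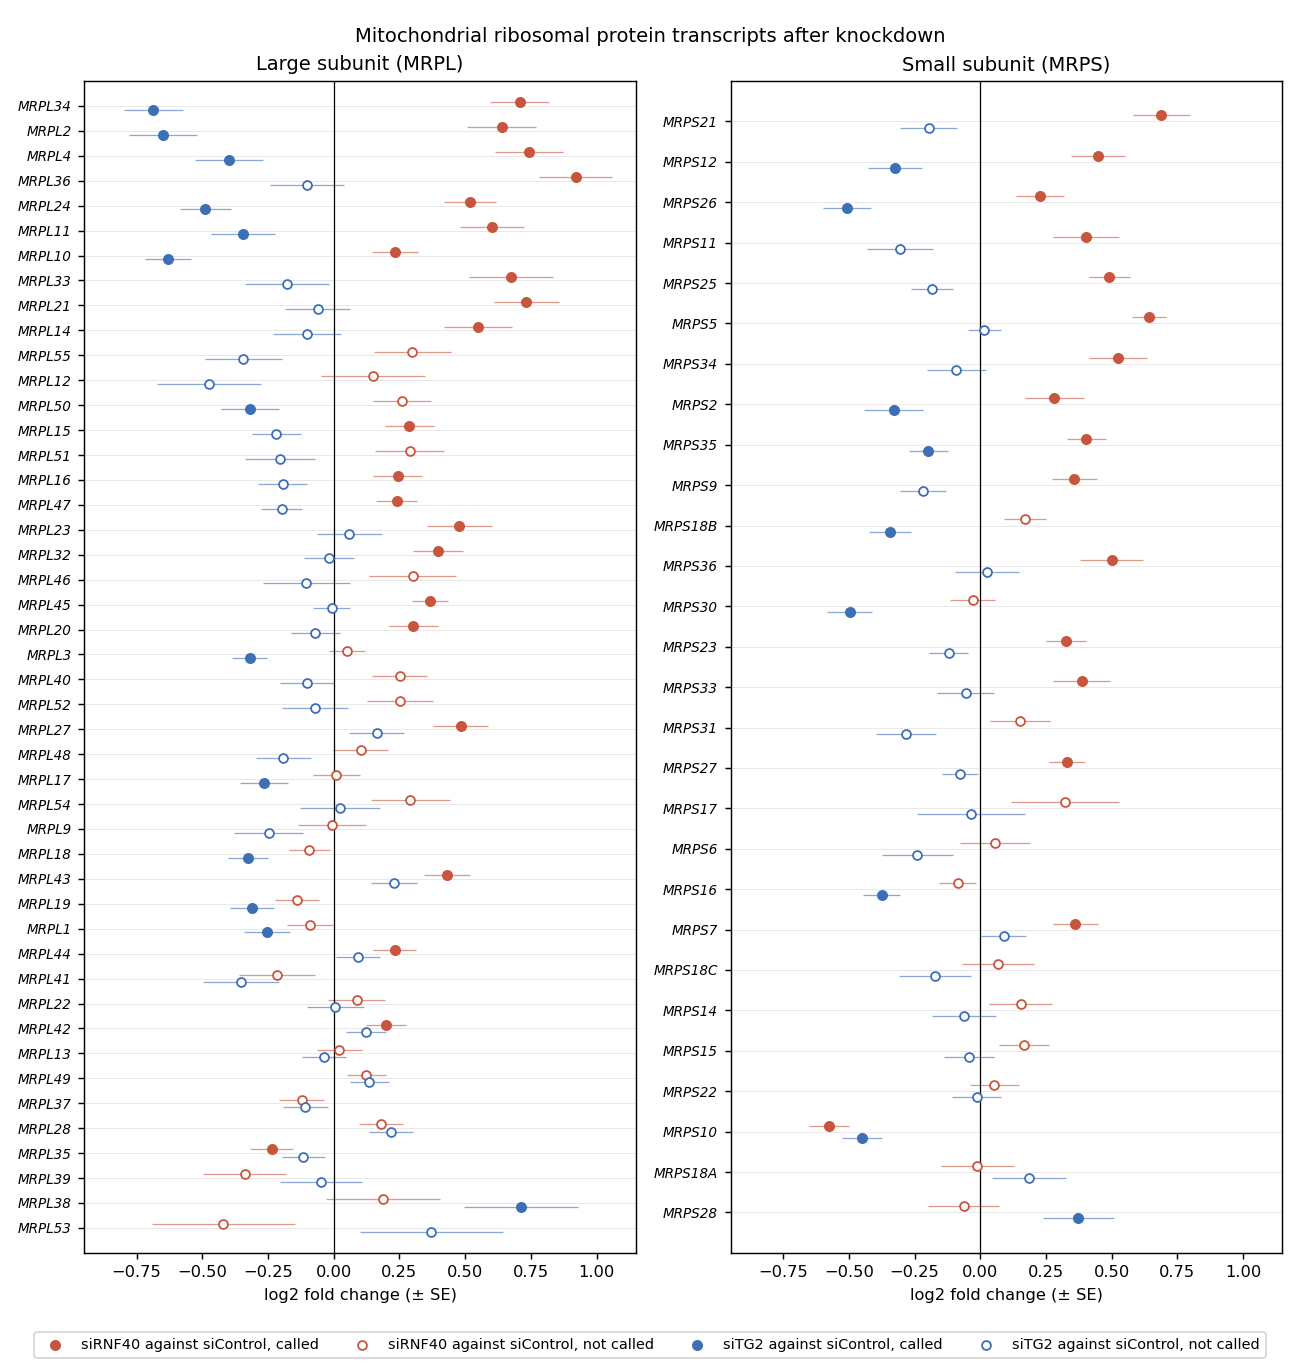
Log2 fold change (± SE, from limma, 3 libraries per group) of each tested gene in siRNF40 (red) and siTG2 (blue) against siControl, large subunit left and small subunit right, ordered from the top by the difference between the knockdowns. Filled points passed an adjusted p of 0.05. MRPS24, with few reads and fold changes of 2.88 in siRNF40 and 2.93 in siTG2, is not drawn. Red points lie mostly right of 0 (median 0.25) and blue points mostly left of it (median -0.12). When libraries are scaled to equal totals the blue median becomes 0.02, beside 0.13 over all genes tested.

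After TG2 knockdown a smaller set of genes changed, and the direction of the group depended on the scaling. With the deposited size factors, 20 of the 75 genes (26.7%) were lower and 3 higher in siTG2 than in siControl, where 18.5% of all genes tested were lower and 12.8% higher. Of the protein-coding genes tested, a nearer match to this family, 22.5% were lower and 14.6% higher. Among genes with a mean of at least 50, 21 of 74 members and 3323 of 13545 genes were lower. The members' share of lower genes was therefore near that of like genes. The median log2 fold change was -0.12, against -0.01 over all genes tested. With libraries scaled to equal totals, however, 9 genes were lower and 10 higher, beside 1890 lower and 3872 higher of all 17663 genes. The median turned to 0.02 and the median of all genes moved to 0.13. Relative to all genes, the median of the 75 was then -0.11. Under quantile normalization 14 were lower and 6 higher, beside 2616 lower and 2606 higher of all genes. The normalized counts of a library summed to 28807588, 29339654 and 29454844 in siTG2, against 32203771, 32404008 and 32122874 in siControl. The siTG2 libraries held reads of more genes (27123 to 27602, against 25162 to 25468 in siControl), and the part of this in the result was not tested. Without siTG2 replicate 1, which had the lowest value of its group for 50 of the 75 genes, 12 genes were lower. The 3 higher genes became 0 without siTG2 replicate 3, siControl replicate 2 or siControl replicate 3, 1 without siTG2 replicate 2 and 5 without siRNF40 replicate 3.

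MRPL34, MRPL2 and MRPL10 fell most, and they, MRPL24, MRPS10, MRPS26 and MRPS30 kept both the direction and the call under every alternative run. MRPL34 (ENSG00000130312, chr19:17403418-17417652, hg19) stood at 1301, 1401 and 1468 in the siRNF40 libraries, 450.3, 637 and 511 in the siTG2 libraries and 855, 889 and 806 in the siControl libraries. The 3 groups did not overlap, and its log2 fold change was -0.69 (SE 0.11, adjusted p = 0.000114) in siTG2 and 0.71 (SE 0.11, adjusted p = 3.99e-05) in siRNF40. MRPL2, whose bacterial counterpart lies beside the peptidyl transferase centre, stood at 1447, 1230.1 and 1679 in the siRNF40 libraries, 471, 714 and 607 in the siTG2 libraries and 885, 942 and 948 in the siControl libraries. Again no group overlapped another, with a log2 fold change of -0.65 (SE 0.13, adjusted p = 0.000843) in siTG2 and 0.64 (SE 0.13, adjusted p = 0.000538) in siRNF40.

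MRPL10 anchors the stalk that recruits translation factors, and MRPL12 forms the mobile arms of that stalk. MRPL10 stood at 2847, 2771 and 3000.3 in the siRNF40 libraries, 1369.9, 1718 and 1668 in the siTG2 libraries and 2362, 2645 and 2335 in the siControl libraries, with siTG2 below and siRNF40 above all siControl libraries. Its log2 fold change was -0.63 (SE 0.09, adjusted p = 1.71e-05) in siTG2 and 0.23 (SE 0.09, adjusted p = 0.0346) in siRNF40. The siRNF40 call ended without siRNF40 replicate 1 or 3 or siControl replicate 1 or 3, with equal totals and with no filter on low values, with adjusted p from 0.00918 to 0.126 over all alternatives. MRPL12 stood at 187, 281 and 258 in the siRNF40 libraries, 119, 177 and 174 in the siTG2 libraries and 243, 220.2 and 185 in the siControl libraries, where the siTG2 libraries were all below the siControl libraries but the log2 fold change of -0.48 (SE 0.20, adjusted p = 0.0758) was not called. Of MRPL12's exon bases, 68.2% are shared with another annotated gene on its strand.

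Other genes lower in siTG2 changed less in siRNF40. MRPS30, named for the small subunit although its protein has since been placed in the large one, stood at 2436, 2444 and 2286 in the siRNF40 libraries, 1880.5, 1501 and 1819.9 in the siTG2 libraries and 2321, 2362 and 2634 in the siControl libraries, a log2 fold change of -0.50 (SE 0.09, adjusted p = 0.000207) in siTG2 and -0.03 (SE 0.09, adjusted p = 0.816) in siRNF40. MRPS26, a protein specific to mitochondria, stood at 1073, 1137 and 1179 in the siRNF40 libraries, 627, 685 and 727 in the siTG2 libraries and 1010.5, 942 and 940.0 in the siControl libraries, with log2 fold changes of -0.51 (SE 0.09, adjusted p = 0.000289) in siTG2 and 0.23 (SE 0.09, adjusted p = 0.0482) in siRNF40. The siRNF40 call of MRPS26 ended with equal totals. The siTG2 libraries of MRPS30 and MRPS26 lay below all others. MRPL3, MRPL17, MRPL18, MRPL50, MRPS16 and MRPS18B were likewise lower in siTG2, with log2 fold changes from -0.38 to -0.27, and not called in siRNF40. For these genes, with the deposited size factors, the libraries of siTG2 were all below those of siControl.

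**Figure D2:**
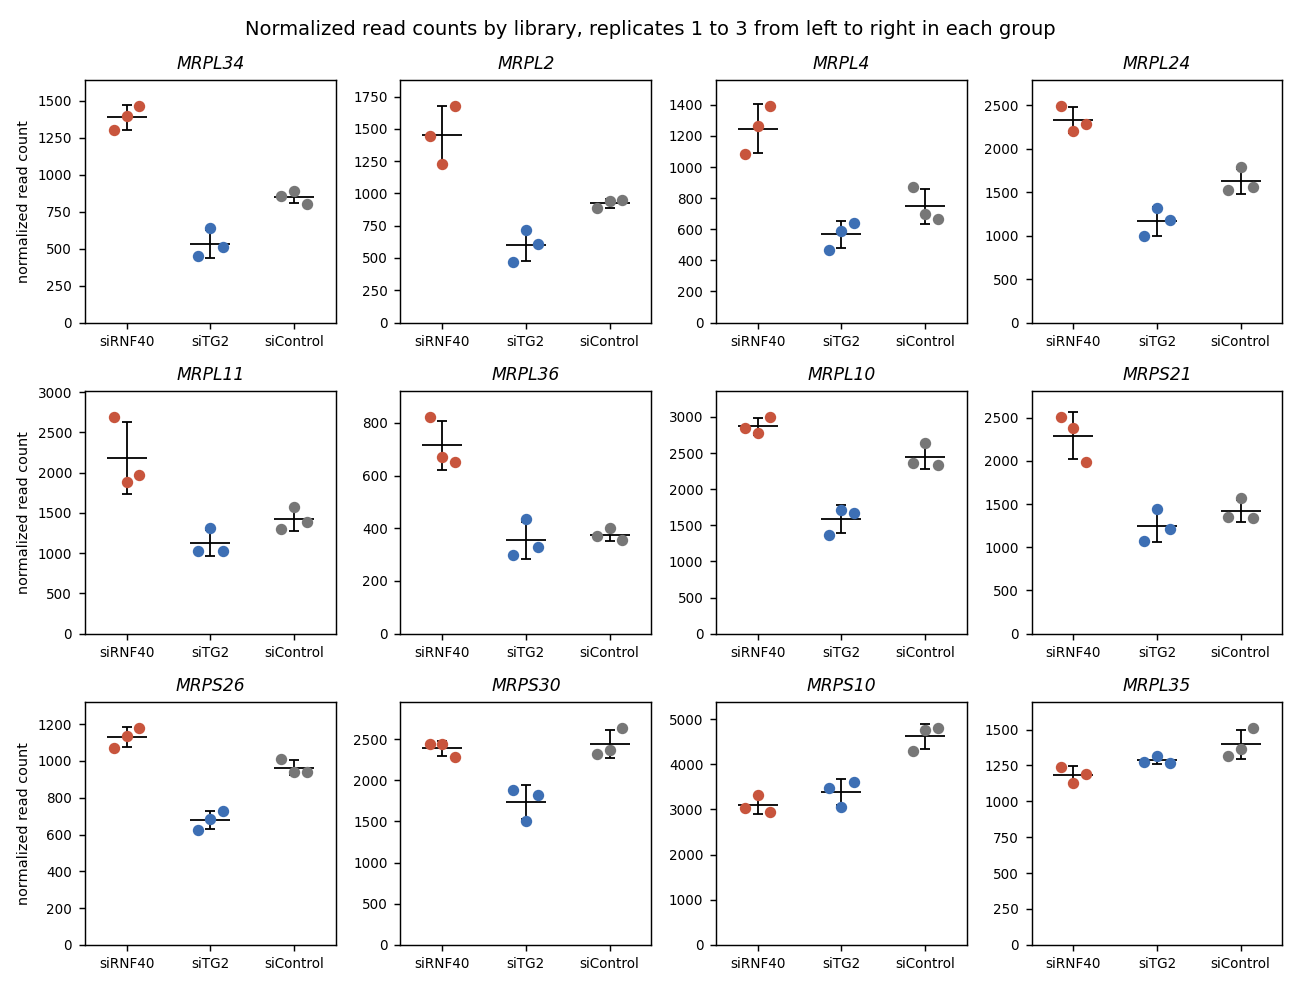
Normalized read counts (linear axes from 0) of 12 genes in each library, with siRNF40 in red, siTG2 in blue and siControl in grey, and bars for the mean ± SD over 3 libraries. MRPL34, MRPL2 and MRPL24 fall into 3 levels with siRNF40 highest and siTG2 lowest, the siTG2 libraries of MRPL36 and MRPS21 overlap siControl, and MRPS10 is below siControl in both knockdowns.

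Set directly against each other, the knockdowns differed in most of these genes. Of 75 genes, 48 were higher and 3 lower in siRNF40 than in siTG2, where 26.6% of all genes tested were higher and 26.6% lower. Of the protein-coding genes tested, 30.1% were higher and 31.0% lower. The median log2 difference was 0.37, against -0.01 over all genes tested. With equal totals 35 were higher and 9 lower and the median was 0.20, while the median of all genes moved to -0.19. The lower count was 1 without siRNF40 replicate 2, siTG2 replicate 1 or siTG2 replicate 3. Between these groups all 3 siRNF40 libraries were above all 3 siTG2 libraries for 47 of the 75 genes and below them for 4, against 28.99% and 29.3% of all genes tested. This comparison shares its libraries with the other comparisons, so it is a test of the difference and not further evidence for either effect.

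A set of 10 genes was higher in siRNF40 and lower in siTG2 than in siControl, and each of them differed between the knockdowns: MRPL2, MRPL4, MRPL10, MRPL11, MRPL24, MRPL34, MRPS2, MRPS12, MRPS26 and MRPS35. Of all 17663 genes tested, 909 (5.15%) were called in these opposite directions. With equal totals 3 of the 10 kept both calls, namely MRPL2, MRPL24 and MRPL34, beside 514 (2.91%) of all genes, and under quantile normalization 7 of the 10 did, while MRPL50 joined them, beside 776 (4.39%). The log2 difference between siRNF40 and siTG2 was 1.39 (SE 0.11, adjusted p = 5.36e-09) for MRPL34. It was 1.29 (SE 0.13, adjusted p = 1.21e-07) for MRPL2 and 1.14 (SE 0.13, adjusted p = 4.9e-07) for MRPL4. MRPL4's siTG2 call ended with equal totals, without siTG2 replicate 1 and without siControl replicate 1, with adjusted p from 0.0148 to 0.151 over all alternatives. MRPL24, whose bacterial counterpart lies near the tunnel exit, stood at 2494, 2206 and 2279 in the siRNF40 libraries, 992, 1319.9 and 1179.7 in the siTG2 libraries and 1527, 1794 and 1558 in the siControl libraries. Its 3 groups did not overlap, and the log2 difference between the knockdowns was 1.01 (SE 0.10, adjusted p = 7.56e-08). MRPL11, part of the base of the stalk, stood at 2691, 1886 and 1965 in the siRNF40 libraries, 1025, 1314 and 1031 in the siTG2 libraries and 1299.8, 1577 and 1389 in the siControl libraries, where siTG2 replicate 2 lay above siControl replicate 1. Its log2 difference between the knockdowns was 0.95 (SE 0.12, adjusted p = 2.79e-06), but its siTG2 call of -0.35 (SE 0.12, adjusted p = 0.0396) ended under 8 alternatives, with adjusted p from 0.00897 to 0.211. For MRPL36 the difference was 1.02 (SE 0.14, adjusted p = 5.1e-06).

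MRPS10 was lower and MRPS24 higher than siControl in both knockdowns, with no call between the knockdowns for either. A further 23 genes were higher in siRNF40 than in both other groups and not called in siTG2 against siControl, among them MRPL14, MRPL33, MRPS5, MRPS21, MRPS25 and MRPS34. MRPL42, MRPL43 and MRPL44 were higher in siRNF40 than in siControl but not called against siTG2. A further 8 genes were called between the knockdowns alone, as higher in siRNF40, and 16 passed no test. MRPL1 and MRPL19 were lower in siTG2 without a call between the knockdowns. Among the 16 were MRPL13, MRPL49, MRPS6, MRPS14 and MRPS22. MRPL13 stood at 1863, 1683 and 1497 in the siRNF40 libraries, 1614, 1521 and 1691 in the siTG2 libraries and 1653, 1625 and 1672 in the siControl libraries, and its log2 fold change was 0.02 in siRNF40 and -0.04 in siTG2, with overlapping groups.

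MRPL38, MRPL53 and MRPS28 were the 3 genes lower in siRNF40 than in siTG2, and 37.5%, 45.2% and 35.8% of their exon bases are shared with another gene on the same strand in GENCODE 29. Among the 64 genes with a share of at most 10%, 42 were higher and 0 lower in siRNF40 than in siTG2 by limma, while limma, edgeR and DESeq2 each called 3 lower over all 75. Of the 9 tested genes with a larger share, 4 were higher and 3 lower between the knockdowns, and MRPL12 was among the 4. MRPL38 stood at 97.9, 109 and 146 in the siRNF40 libraries, 149, 181 and 174 in the siTG2 libraries and 129, 92.1 and 88.8 in the siControl libraries, above all siControl libraries in siTG2. MRPS28 stood at 305, 433 and 423 in the siRNF40 libraries, 539, 524 and 491 in the siTG2 libraries and 377, 425 and 398 in the siControl libraries, again with siTG2 above all siControl libraries. MRPL53 stood at 49.97, 37.9 and 43.8 in the siRNF40 libraries, 84.8, 67.8 and 77.2 in the siTG2 libraries and 50.8, 70.2 and 56.8 in the siControl libraries, where the siRNF40 libraries were below all others. Each of these calls ended when single libraries were left out, with adjusted p from 0.00526 to 0.0711 (MRPL38) and 0.00676 to 0.134 (MRPS28) over the alternatives in siTG2 against siControl, and from 0.0105 to 0.166 (MRPL38), 0.000788 to 0.0789 (MRPS28) and 0.00563 to 0.0742 (MRPL53) between the knockdowns. MRPS24 stood at 49.97, 11.1 and 7.47 in the siRNF40 libraries, 16.02, 14.96 and 20.5 in the siTG2 libraries and 12.1, 0 and 0 in the siControl libraries, with siRNF40 overlapping siControl and too few reads for the fitted fold changes of 2.88 in siRNF40 and 2.93 in siTG2 to be read as sizes. Part of its sequence is shared with the URGCP-MRPS24 read-through gene, and its call ended under DESeq2 in both comparisons, with adjusted p from 0.000786 to 0.159 in siRNF40 and from 0.00138 to 0.292 in siTG2. MRPL30 averaged 0.97 over all libraries and was not tested. Whether reads were assigned by strand is not given in the sources used here. Counting both strands, other genes overlap 21.4% of the exon bases of MRPL4, 14.7% of MRPL2, 13.2% of MRPL34, 16.3% of MRPS12, 36.9% of MRPL43, 31.3% of MRPL51, 47.04% of MRPS18A and 40.2% of MRPS18C, and 21.1% of MRPL33 is shared on its own strand, so their reads and those of the overlapping genes cannot be fully told apart.

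Levels differed widely within the family. Per kilobase of a gene's median coding transcript, MRPL49 had the highest value, at 4917 normalized counts per kb in siRNF40, 4954 in siTG2 and 4514 in siControl. Its normalized counts were 2404, 2439 and 2674 in the siRNF40 libraries, 2461, 2643 and 2468 in the siTG2 libraries and 2142, 2454 and 2304 in the siControl libraries. MRPL49's median coding transcript is 509.5 bases, shorter than the 1499 bases of 3′ UTR in its longest coding transcript. For MRPL42 the median is 920 bases beside a 3′ UTR of 14992. Values per kb thus depend on the annotated transcripts, and their order may not be that of abundance. By mean normalized counts in siControl, MRPL3 (4955) and MRPS10 (4619) stood above MRPL49 (2300). MRPL51 stood at 4032 per kb in siRNF40, 2913 in siTG2 and 3289 in siControl, the second highest in siRNF40 and siControl, while MRPL42 was above it in siTG2 at 3200.0 per kb. In normalized counts MRPL51 stood at 2444, 2286 and 1934 in the siRNF40 libraries, 1191, 1983 and 1641 in the siTG2 libraries and 1704, 1823 and 1910.0 in the siControl libraries. At the other end, MRPS24 stood at 31.5 per kb in siRNF40, 23.7 in siTG2 and 5.59 in siControl, and MRPL30 was lowest, with normalized counts of 0, 0 and 0 in the siRNF40 libraries, 0, 2.64 and 1.95 in the siTG2 libraries and 0, 0 and 4.13 in the siControl libraries. MRPL30's second row (chr2:99771461-99811761) overlaps the kept row on the same strand and averaged 0.10. Reads of the shared stretch cannot be told apart, so these low counts need not mean a low level of the transcript. Of the 76 genes, 72 were above 100 normalized counts in every library. MRPS18A, MRPS18B and MRPS18C are relatives of 1 bacterial protein. MRPS18B stood at 3187, 3422 and 3442 in the siRNF40 libraries, 2209, 2679 and 2188 in the siTG2 libraries and 2865, 3104 and 2971 in the siControl libraries, and its siTG2 log2 fold change was -0.34 (SE 0.08, adjusted p = 0.0027). MRPS18A stood at 344, 351 and 367 in the siRNF40 libraries, 356, 432 and 433 in the siTG2 libraries and 337, 434 and 309.9 in the siControl libraries, and MRPS18C at 766, 779 and 598 in the siRNF40 libraries, 481, 735 and 611 in the siTG2 libraries and 711, 668 and 649.8 in the siControl libraries. Neither was called in any comparison, and the groups of both overlapped.

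Scaled to the gene reads of each library, the 76 genes together had 3509, 3434 and 3406 CPM in siRNF40, 2829, 3069 and 2949 in siTG2 and 2960, 3109 and 3003 in siControl. The siRNF40 libraries were above all others, while siTG2 and siControl overlapped. The subunits were again split by symbol alone, which counts MRPS30 in the small one. For the large subunit the share was 2018, 1938 and 1934 in siRNF40, 1595, 1807 and 1694 in siTG2 and 1676, 1778 and 1694 in siControl. For the small subunit it was 1491, 1496 and 1472 in siRNF40, 1234, 1262 and 1256 in siTG2 and 1284, 1331 and 1309 in siControl, and there the 3 groups did not overlap. The ratio of large to small subunit reads was 1.35, 1.30 and 1.31 in siRNF40, 1.29, 1.43 and 1.35 in siTG2 and 1.31, 1.34 and 1.29 in siControl, with overlapping groups. The 67 pseudogene rows with MRPL or MRPS names held 3907 reads, which is 0.432% of the 904973 reads in the family.

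**Figure D3:**
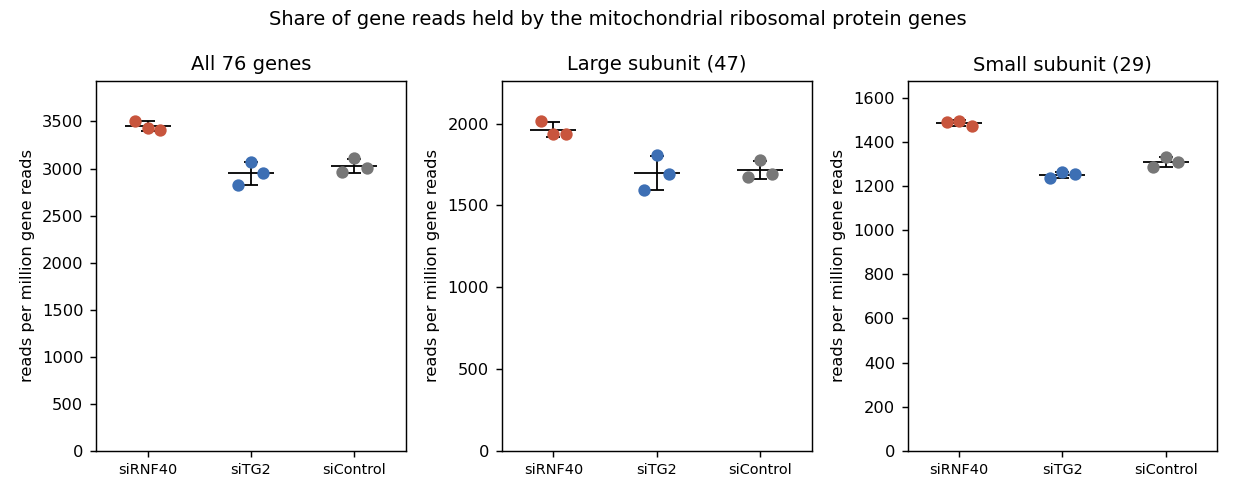
CPM, the share of a library's gene reads, of all 76 genes, by the 47 large-subunit genes and by the 29 small-subunit genes (linear axes from 0), with 1 point per library and the mean ± SD over 3 libraries. For all 76 genes the siRNF40 libraries lie between 3406 and 3509, above the siTG2 libraries (2829 to 3069) and the siControl libraries (2960 to 3109), which overlap.

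The numbering splits the family into 43 tested genes with a number shared with bacteria (MRPL up to 36, MRPS up to 21) and 32 mitochondria-specific ones. Of the 43 bacterial genes 16 were lower and 0 higher in siTG2 by limma, with a median of -0.22, against 4 lower and 3 higher of the 32 others, with a median of -0.08. Of all genes tested, 18.5% were lower and 12.8% higher there, with a median of -0.01. With equal totals the bacterial group had 7 lower and 3 higher and a median of -0.08, and the mitochondria-specific group 2 lower and 7 higher and a median of 0.06 (4 lower and 5 higher under quantile normalization). Of all 17663 genes, 1890 were lower and 3872 higher with equal totals, with a median of 0.13 (2616 lower and 2606 higher under quantile normalization). In siRNF40 the bacterial group had 23 higher and 2 lower (median 0.28) and the other 14 higher and 0 lower (median 0.25) by limma. No test of the difference between these classes was made.

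Calls were also counted by promoter word, as a description with no test. Among the 40 tested genes with at least 1 word, 19 were higher and 1 lower in siRNF40 (median 0.25). Among the 26 with none, 12 were higher and 0 lower by limma (median 0.26). Of all genes tested, 21.7% were higher and 23.6% lower there, with a median of 0.02. In siTG2, 9 of the 40 genes with a word (22.5%) and 9 of the 26 without one (34.6%) were lower. Their medians were -0.10 and -0.24 under the deposited size factors. Of the protein-coding genes tested 22.5% were lower there, and of all genes tested 18.5%, with a median of -0.01 over all genes. With equal totals, 9 of the 75 genes were lower in place of 20. The word GTCTTCA, which was picked in earlier work on these libraries as the word tied most to genes lower in siRNF40, was in the 3′ UTR of 5 of 74 members (6.76%), namely MRPL11, MRPL22, MRPL42, MRPL52 and MRPS33, against 14.04% of 13416 tested genes. The members' 3′ UTRs were short, with a median of 446.5 bases against 1239 bases, and neither MRPS10 nor MRPL35 holds the word. Members also span less of the genome, with a median of 11340 bases against 32095.5 bases for protein-coding genes tested. Across the 75 genes, which are not independent replicates, Spearman's rho between this span and the log2 fold change was -0.09 in siRNF40 and 0.14 in siTG2.

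Of the 76 genes, 19 start back to back with a protein-coding gene, and 17 such pairs could be compared, with starts at most 965 bases apart on opposite strands. In siRNF40, 6 of the 17 partners were higher and 2 lower, where 21.7% of all genes tested were higher and 23.6% lower. Among the 6 was MRPS11, the partner of MRPL46 and itself a member of the family. In 3 pairs both genes were higher. These were MRPL36 with NDUFS6 and MRPL47 with NDUFB5, both partners being subunits of respiratory complex I, and MRPL43 with C10orf2, which encodes the mitochondrial DNA helicase Twinkle. Pairs were formed from hg19 gene positions, and the promoter windows from RefSeq starts in GRCh38.p14, so a gene's 2 starts can differ. For MRPL36 the pair rests on a start at 1801480 (hg19), and the printed window lies at chr5:1799808-1799987 (GRCh38.p14). That window need not be the stretch between MRPL36 and NDUFS6. NDUFS6 stood at 1613, 1008 and 917 in the siRNF40 libraries, 660.4, 839 and 821 in the siTG2 libraries and 861, 875 and 822 in the siControl libraries, with a log2 fold change of 0.42 (SE 0.15, adjusted p = 0.0304) in siRNF40. That call ended without siRNF40 replicate 1 or any 1 siControl library, under DESeq2 and with no filter on low values, with adjusted p from 0.00296 to 0.253 over all alternatives. The partners that fell were EME1, a nuclease of DNA repair that starts 6 bases from MRPL27, and MTBP, which starts 2 bases from MRPL13. EME1 stood at 134, 123 and 129 in the siRNF40 libraries, 295, 317 and 316 in the siTG2 libraries and 378, 400.5 and 374 in the siControl libraries, with a log2 fold change of -1.57 (SE 0.14, adjusted p = 2.8e-08) in siRNF40. MRPL27 stood at 1466, 1297 and 1160.2 in the siRNF40 libraries, 924, 1185 and 1035 in the siTG2 libraries and 888, 986 and 922 in the siControl libraries, and its log2 fold change was 0.48 (SE 0.10, adjusted p = 0.000873). The pair changed in opposite directions. MTBP stood at 322, 336 and 224 in the siRNF40 libraries, 714, 633 and 765 in the siTG2 libraries and 729, 773 and 885 in the siControl libraries, with a log2 fold change of -1.45 (SE 0.14, adjusted p = 1.16e-07) beside 0.02 for MRPL13. In siTG2, TCP1, a subunit of the cytosolic chaperonin, fell with its partner MRPL18, with log2 fold changes of -0.41 (SE 0.06, adjusted p = 2.52e-05) and -0.33 (SE 0.08, adjusted p = 0.00327), the only pair of the 17 with both genes lower under the deposited size factors. No other partner fell in siTG2 by limma, and 3 were higher, none of them with its member. Of all genes tested, 18.5% were lower and 12.8% higher there. LRRC46, which starts 93 bases from MRPL10, was higher by 0.64 (SE 0.21, adjusted p = 0.0278) beside the lower MRPL10, a call that ended under quantile normalization and without siTG2 replicate 1 or 2 or siControl replicate 2 or 3 (adjusted p from 0.00852 to 0.116 over all alternatives). PNPLA7 was higher by 0.98 (SE 0.24, adjusted p = 0.00411) beside MRPL41, and EME2 by 0.55 (SE 0.11, adjusted p = 0.000704) beside MRPS34, where neither member was called. Between the knockdowns 7 partners were higher and 4 lower in siRNF40, where 26.6% of all genes tested were higher and 26.6% lower. In 6 pairs both genes were higher, among them MRPL46 with MRPS11, both of them family members. Partners were named after their values were seen.

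**Figure D4:**
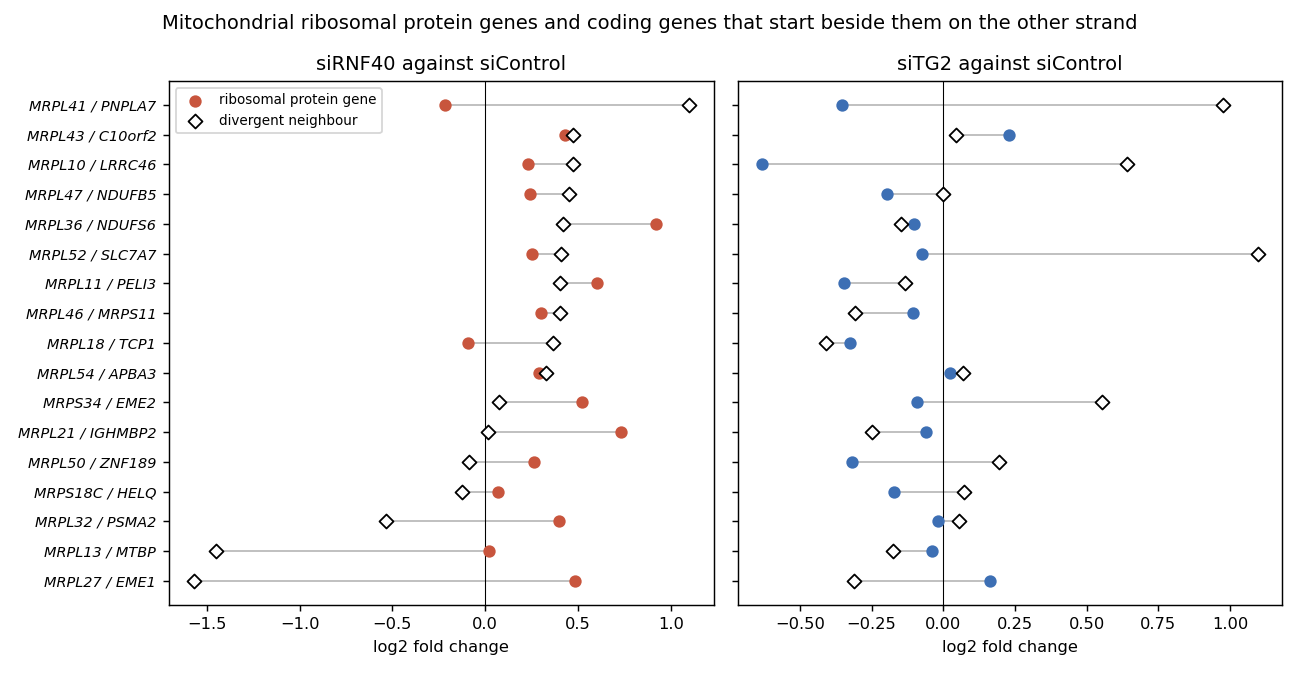
Log2 fold change against siControl of the mitochondrial ribosomal protein gene (coloured circle) and of its back-to-back partner (open diamond) for 17 pairs, in siRNF40 (left) and siTG2 (right), ordered by the partner's change in siRNF40. EME1 and MTBP lie far left of MRPL27 and MRPL13 in siRNF40 (-1.57 beside 0.48, and -1.45 beside 0.02).

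The lists that follow are read against the shares of all genes tested, 21.7% higher and 23.6% lower in siRNF40, 12.8% and 18.5% in siTG2, and 26.6% and 26.6% between siRNF40 and siTG2. These shares hold for the deposited size factors. With equal totals, 3504 of the 17663 genes were higher and 4451 lower in siRNF40, 3872 and 1890 in siTG2, and 3278 and 6324 between the knockdowns. Under quantile normalization the counts were 4076 and 3897, 2606 and 2616, and 4778 and 4684. A list of 8 further genes under other symbols holds proteins of the mitochondrial ribosome and OXA1L, a membrane insertase that binds it. Of the 8, 5 were higher and 1 lower in siRNF40, 1 was higher and 4 lower in siTG2, and 6 were higher and 0 lower by limma between siRNF40 and siTG2. OXA1L was the gene higher in siTG2 (0.21) and was among the genes higher in siRNF40 (0.29). With equal totals, and under quantile normalization, the siTG2 counts became 1 and 1. CHCHD1, a small-subunit protein, stood at 909.7, 719.6 and 666 in the siRNF40 libraries, 369, 546 and 504 in the siTG2 libraries and 375, 625 and 473 in the siControl libraries, with log2 fold changes of 0.66 (SE 0.17, adjusted p = 0.00421) in siRNF40 and -0.04 (SE 0.17, adjusted p = 0.884) in siTG2. Its siTG2 libraries overlapped siControl. GADD45GIP1, a large-subunit protein, differed by 0.74 (SE 0.11, adjusted p = 9.44e-06) between siRNF40 and siTG2.

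Of 16 translation factors, 6 were higher and 4 lower in siRNF40, and 0 higher and 6 lower in siTG2 (1 and 3 with equal totals). TUFM, the elongation factor that brings aminoacyl-tRNA to the ribosome, stood at 10639.7, 10638 and 12148 in the siRNF40 libraries, 3935, 4479 and 4369 in the siTG2 libraries and 6317, 6833 and 6289 in the siControl libraries. Its groups did not overlap, and the log2 fold change was 0.78 (SE 0.07, adjusted p = 4.31e-08) in siRNF40 and -0.61 (SE 0.07, adjusted p = 2.5e-06) in siTG2. GFM1, the elongation factor that moves the ribosome along, stood at 977, 981 and 815 in the siRNF40 libraries, 1675, 1618 and 1742 in the siTG2 libraries and 1589, 1605 and 1542 in the siControl libraries. It was lower in siRNF40, with a log2 fold change of -0.78 (SE 0.09, adjusted p = 5.53e-07), and was not called in siTG2 (0.09). The release-factor relative C12orf65 was also lower in siRNF40, with a log2 fold change of -0.82 (SE 0.09, adjusted p = 2.85e-07). SLIRP, which stabilises mitochondrial messenger RNA, was higher there by 0.86 (SE 0.16, adjusted p = 0.000167).

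Assembly and ribosomal RNA modification factors had 12 genes higher and 4 lower of 27 in siRNF40, and 3 higher and 4 lower in siTG2 (5 and 3 with equal totals). C6orf203 and NOA1, a GTPase of ribosome assembly, were higher in siRNF40, by 0.70 (SE 0.15, adjusted p = 0.000776) and 0.70 (SE 0.09, adjusted p = 4.5e-06) on the log2 scale. MTG1, another GTPase of assembly, stood at 127, 121 and 125 in the siRNF40 libraries, 146, 163 and 147 in the siTG2 libraries and 99.4, 94.9 and 73.3 in the siControl libraries, with a log2 fold change of 0.77 (SE 0.20, adjusted p = 0.00567) in siTG2 and no call in siRNF40 (0.49). FASTKD2, which binds the large ribosomal RNA, stood at 1216, 1225 and 1080.1 in the siRNF40 libraries, 1092, 1168 and 1119 in the siTG2 libraries and 1628, 1859 and 1641 in the siControl libraries and was below all siControl libraries in both knockdowns. Between the knockdowns 13 of the 27 were higher and 1 lower in siRNF40, and 6 and 4 with equal totals. The mitochondrial tRNA synthetases had 4 higher and 4 lower of 17 in siRNF40, which is 23.5% in each direction and near the shares of all genes, and 1 higher and 2 lower in siTG2 (2 and 0 with equal totals, 1 and 0 under quantile normalization). IARS2 stood at 1942, 2358 and 1899.9 in the siRNF40 libraries, 4284, 4339.7 and 4508 in the siTG2 libraries and 5449, 5693 and 5195 in the siControl libraries, a log2 fold change of -1.40 (SE 0.08, adjusted p = 7.32e-11) in siRNF40. RARS2 was lower too, with a log2 fold change of -1.06 (SE 0.09, adjusted p = 3.82e-08).

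Genes for mitochondrial DNA transcription, replication and RNA processing had 8 higher and 1 lower of 16 in siRNF40, and 0 higher and 7 lower in siTG2 (1 and 3 with equal totals). HSD17B10, a subunit of mitochondrial RNase P, stood at 1906, 2095 and 2323 in the siRNF40 libraries, 354, 384 and 410.5 in the siTG2 libraries and 1302, 1251 and 1147 in the siControl libraries. It had the largest siTG2 change of the lists, -1.69 (SE 0.10, adjusted p = 2.74e-10), and was higher in siRNF40 by 0.77 (SE 0.10, adjusted p = 2.7e-06). Between the knockdowns 8 of these genes were higher and 0 lower by limma, 8 and 2 with equal totals, and 8 and 1 under quantile normalization. TFAM, which packages mitochondrial DNA, was not called (-0.13 in siRNF40, -0.17 in siTG2). The 13 messenger RNAs encoded by mitochondrial DNA were listed at 0 in every library, so what the ribosome translates was not measured here.

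Of 9 tested regulators of mitochondrial biogenesis, 4 were higher and 2 lower in siRNF40 (5 and 1 under quantile normalization, 4 and 3 with equal totals). MYC, a general activator of ribosome and mitochondrial genes, stood at 10123, 9304 and 9469 in the siRNF40 libraries, 3608, 3756 and 3999 in the siTG2 libraries and 5509.5, 5943 and 5982 in the siControl libraries. Its groups did not overlap, with log2 fold changes of 0.73 (SE 0.06, adjusted p = 3.23e-08) in siRNF40 and -0.62 (SE 0.06, adjusted p = 6.48e-07) in siTG2. ESRRA, a nuclear receptor that activates genes of energy metabolism, stood at 2952, 2617 and 2973 in the siRNF40 libraries, 1112, 1238 and 1113 in the siTG2 libraries and 1499.7, 1503 and 1565 in the siControl libraries, with 0.90 (SE 0.08, adjusted p = 2.9e-08) in siRNF40 and -0.40 (SE 0.08, adjusted p = 0.000681) in siTG2 on the log2 scale. Its 3 groups were likewise apart. The coactivator PPARGC1B was higher in siRNF40, with a log2 fold change of 1.00 (SE 0.13, adjusted p = 4.2e-06), and not called in siTG2. In siTG2, 0 of the 9 were higher and 7 lower by limma, and 5 lower with equal totals. Between siRNF40 and siTG2, 6 were higher and 0 lower by limma, 5 and 1 with equal totals, and 6 and 1 under quantile normalization. NRF1, GABPA and YY1, whose words were searched in the promoters, had log2 fold changes in siRNF40 of -0.15, -0.44 and -0.27. GABPA and YY1 were called lower there, the YY1 call ending under quantile normalization, and NRF1 was not called.

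Of 20 tested genes of mitochondrial protein import, 9 were higher and 1 lower in siRNF40, and 0 higher and 7 lower in siTG2 (2 and 5 with equal totals). Between the knockdowns 14 were higher and 1 lower in siRNF40. TIMM50, a receptor of the inner-membrane translocase, stood at 2054, 2192 and 2212 in the siRNF40 libraries, 706, 811 and 787 in the siTG2 libraries and 1485, 1518 and 1438 in the siControl libraries. The groups did not overlap, and the log2 difference between siRNF40 and siTG2 was 1.49 (SE 0.08, adjusted p = 2.8e-11). TIMM13, an intermembrane-space chaperone, was higher in siRNF40 by 1.00 (SE 0.12, adjusted p = 1.1e-06).

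**Figure D5:**
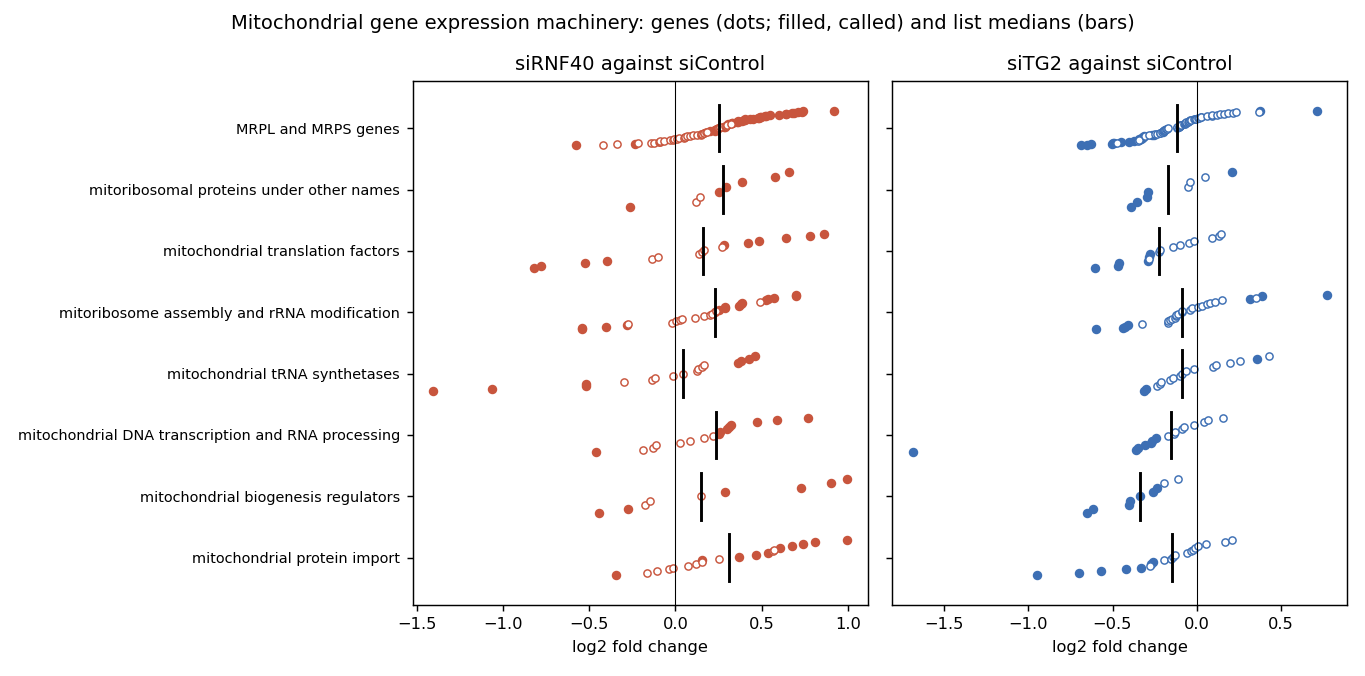
Log2 fold change against siControl in siRNF40 (left) and siTG2 (right) of the MRPL and MRPS genes (without MRPS24) and of 7 lists of related genes, with 1 dot per gene, filled where called, and a bar at each list's median. In siRNF40 the family's median is 0.25 and that of the tRNA synthetases 0.05. In siTG2 the family's median of -0.12 turns to 0.02 with equal totals, where that of all genes tested is 0.13.

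The authors' deposited tables of their DESeq2 comparisons gave close counts. In the authors' deposited table for siRNF40, 35 of the 76 genes were higher and 2 lower at an adjusted p under 0.05, where 10.6% of 35538 genes with a p-value were higher and 11.4% lower. In the authors' deposited table for siTG2, 2 were higher and 20 lower, where 6.52% were higher and 9.13% lower. These shares are over a base that takes in genes with a mean under 10. They are therefore not like the limma shares of the 17663 genes tested, 21.7% higher and 23.6% lower in siRNF40 and 12.8% and 18.5% in siTG2. All members called in the authors' deposited tables were also called by limma, with the same sign.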

How the data were processed

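Polyadenylated RNA of HCT116 cells was sequenced in 9 libraries, 3 each of siRNF40, siTG2 and siControl. Per the submitters' processing notes, Trim Galore 0.4.1, STAR 2.7.0, HTSeq 0.12.4 and DESeq2 were used, with both hg19 and hg38 listed as genome builds. The strand setting is not given in the sources used here. The deposited table holds a signal, gene counts that the authors divided by a size factor per library, and its gene positions are hg19. NC columns were read as siControl, since siNC names the control in the comparison tables. Dividing by each library's smallest step gave whole reads for 100% of values (within 0.001). The deposited comparison tables of the authors hold log2 fold changes, standard errors on the log2 scale, a test statistic (a score), a p-value, and the adjusted p-value for each gene.

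The main test was limma 3.58.1 in R 4.3.3, its variance prior following mean level, run on log2(value + 1) for all 9 libraries with 3 group means. It covered the 17663 genes with a mean of at least 10, two-sided, with Benjamini-Hochberg adjustment over all of them and a call at an adjusted p under 0.05. Fold changes are on this log2(value + 1) scale, where the added 1 shrinks changes of low genes, and compare mean logs, which for MRPS24, with libraries at 0, can exceed the ratio of group means. It was checked on simulated data. The labels do not say whether replicates were separate cultures, so the p-values reflect only library-to-library spread, which may be technical. Alternatives were other pseudocounts and filters, equal totals, quantile normalization, edgeR 4.0.16 with TMM and DESeq2 1.42.0 on the whole reads, the 6 libraries of a comparison alone, a replicate block and each library left out.

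Library values are given for the genes with the largest called changes in each comparison, those called in both knockdowns (of the opposite-direction genes, the 6 with the largest difference between the knockdowns), the 2 highest and 2 lowest per kilobase in siControl, and the MRPS18 and stalk genes. MRPL13, MRPL27, MRPL33, MRPS5, MRPS12, the back-to-back partners and NRF1, GABPA and YY1 were added after their values were seen. Genes named from the other lists are taken from the 3 largest called changes of a comparison, plus, in 1 list, an uncalled gene. GFM1 was added after its values were seen. Members and lists were chosen with earlier results of these data known. Transcript lengths, shared exons and 3′ UTRs come from GENCODE 29, matched by gene ID. Lengths were found for 74 members. Back-to-back partners start within 1000 bases on the opposite strand, with at most 200 bases of overlap.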

Additional observations from a re-analysis of the deposited data

How the results depend on the processing

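In siRNF40 against siControl, the count of higher genes was 29 to 43 under all alternatives and that of lower genes 1 under quantile normalization and 1 to 3 with single libraries left out. In siTG2 against siControl, equal totals gave 10 higher and 9 lower genes and a reversed median of 0.0227, beside 0.135 over all genes tested. There, quantile normalization gave 6 higher, and the 6 libraries alone 5 higher. With single libraries left out, 0 to 5 genes were higher and 12 to 23 lower there. The count of higher genes was 0 without siTG2 replicate 3, siControl replicate 2 or siControl replicate 3, and the lower count was 12 without siTG2 replicate 1. Between siRNF40 and siTG2, equal totals gave 9 lower genes and a median of 0.20, and leaving out single libraries gave 1 to 3 lower. The causes were not tested, other than that equal totals replaces the size factors. With no filter, 31 higher and 2 lower genes were called in siRNF40, 2 and 14 in siTG2, and 46 and 2 between them. Same-numbered libraries did not deviate together (correlations from -0.08 to 0.08), so the numbers do not pair them, and the fit with a replicate block called 35 and 2, 3 and 17, and 47 and 2. For the calls of family members with the largest changes or called in both knockdowns, 589 values kept their call, 55 lost it and 0 changed direction, under the alternatives run. Calls of genes outside the family, such as NDUFS6, LRRC46 and YY1, are not in these counts, nor are smaller member calls such as that of MRPS26 in siRNF40. Low counts limit MRPS24 and MRPL30, and depth is otherwise ample.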
